A study of Bos taurus with 12 samples.

Results

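The miR-23, miR-27 and miR-24 clusters were followed in small RNA libraries of blood, 6 from heat stressed and 6 from heat resistant Chinese Holstein cows. The study placed each cow in a class from its rectal temperature and its loss of milk yield by a principal component analysis. No treatment, age or genotype is given in the labels, all animals are of the same breed, and each class rests on what the cow showed in the heat. The 12 libraries were taken as 1 per cow. The tissue is labelled blood, without a statement on whole blood, cells or plasma. The members were chosen by name: each deposited row whose name reads miR-23a, miR-23b, miR-24, miR-27a or miR-27b once the species prefix, the arm, the copy number and the isoform suffix are taken off. This gave 17 of the 1981 distinct names of the table, on 18 of its 2183 rows, since miR-24-3p stands on 2 rows with the same values. Of the 17 names, 8 are cattle names, 2 human, 1 goat, 5 platypus and 1 opossum, which the submitters' software used for products and isoforms outside the cattle entries.

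Vertebrates carry these miRNAs as a pair of clusters, and each cluster is transcribed as a common primary RNA that is cut into a miR-23, a miR-27 and a miR-24 hairpin. In the RefSeq annotation of the cattle assembly ARS-UCD2.0, MIR23A, MIR27A and MIR24-2 follow each other as neighbouring miRNA genes (the a cluster), and so do MIR23B, MIR27B and MIR24-1 on another chromosome (the b cluster). Each hairpin yields a guide from its 3' arm and a scarcer 5' product. The a and b forms of miR-23, and those of miR-27, share a seed, and the miR-24 guide is the same from both loci. In mouse and human cells these miRNAs are known for roles in endothelial growth and in the choice between myeloid and lymphoid fates, and miR-23a is widely used as a stable partner of the red cell miRNA miR-451 when haemolysis of plasma is gauged.

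The deposited counts limit how far the a and b forms can be separated. Reads that match several rows were split between them, as the fractions of a read in the table show. Counts of miR-23a and miR-23b-3p had the same fractional part in 12 of 12 libraries, above 0 in 7 and 0 in 5, within a tolerance of 1e-06. The same held for miR-27a-3p and miR-27b. How many reads of each pair were split is not given. Each row of miR-24-3p was a whole number in 4 libraries, and in all 12 only after multiplication by 6, within the same tolerance, so both rows hold parts of split reads. Its values are those of 1 row unless both are named. Its log2 fold change was 0.13 from 1 row and 0.10 in a fit with all repeat rows summed. Mature miRNAs are nearly equal in length, so their CPM values (counts scaled to equal library totals, adjusted by the TMM method) were compared without a length correction.

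Total counts ran from 4395454 to 10601301 per library. Heat resistant libraries 1 and 2 stood apart with 136108 and 145866 CPM of the hepatocyte miRNA miR-122, where the remaining 10 libraries had 8588 to 41856 CPM. Heat resistant library 4 had the highest sum of the red cell miRNAs miR-451, miR-144 and miR-486, 90070 CPM, against 18614 to 25464 CPM in the others of its group and 24164 to 75771 CPM in the heat stressed libraries.

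The members together held 6.14 ± 0.695% of counts in the heat stressed group and 6.44 ± 1.04% in the heat resistant group (SD, n = 6 per group). Most of this was miR-27b and miR-24-3p. miR-27b, a miRNA that restrains adipocyte and lipid genes such as PPARG in mouse and human cells, stood at 20402, 22293 and 28395 CPM (lowest, median, highest) in heat stressed cows and at 20246, 21893 and 27919 CPM in heat resistant cows. Both rows of miR-24-3p, which acts on cell cycle and activin signalling genes in human cells, held 17453, 20364 and 23589 CPM in heat stressed cows, against 17469, 19109 and 20146 CPM in heat resistant ones. miR-27b was above both rows of miR-24-3p in 12 of 12 libraries, although the ranges of the pair overlap. The next places were less settled: miR-23a was above miR-27a-3p in 2 of 6 heat stressed and in 5 of 6 heat resistant libraries. miR-23b-3p came far below, under miR-27a-3p in 12 of 12 libraries. The a cluster thus supplied most of the miR-23 reads and the b cluster most of the miR-27 reads, within the limit that some reads were divided.

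miR-23a was the member with the largest difference between the groups among the abundant products, and the difference did not pass. It is a guide of the a cluster and represses glutaminase in human cells. It stood at 5886, 7583 and 12751 CPM (lowest, median, highest) in heat stressed cows and at 6023, 12231 and 23772 CPM in heat resistant cows. In 5 of 6 heat stressed libraries it lay below the heat resistant median. The ranges overlapped, because heat stressed library 2 was high for its group and heat resistant library 4 was low. The log2 fold change, heat stressed over heat resistant, was -0.75 ± 0.28 (SE; edgeR adjusted p = 0.155), which is a level 1.68-fold lower. edgeR called 0 of the 756 features tested (0%) at an adjusted p under 0.05, DESeq2 called 54 (7.14%) and limma-voom 0. None of these calls was a member, and the adjusted p of miR-23a was 0.0876 with DESeq2. With edgeR 146 features (19.3%) had an unadjusted p under 0.05, 77 of them (10.2%) lower in heat stressed cows.

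**Figure D1:**
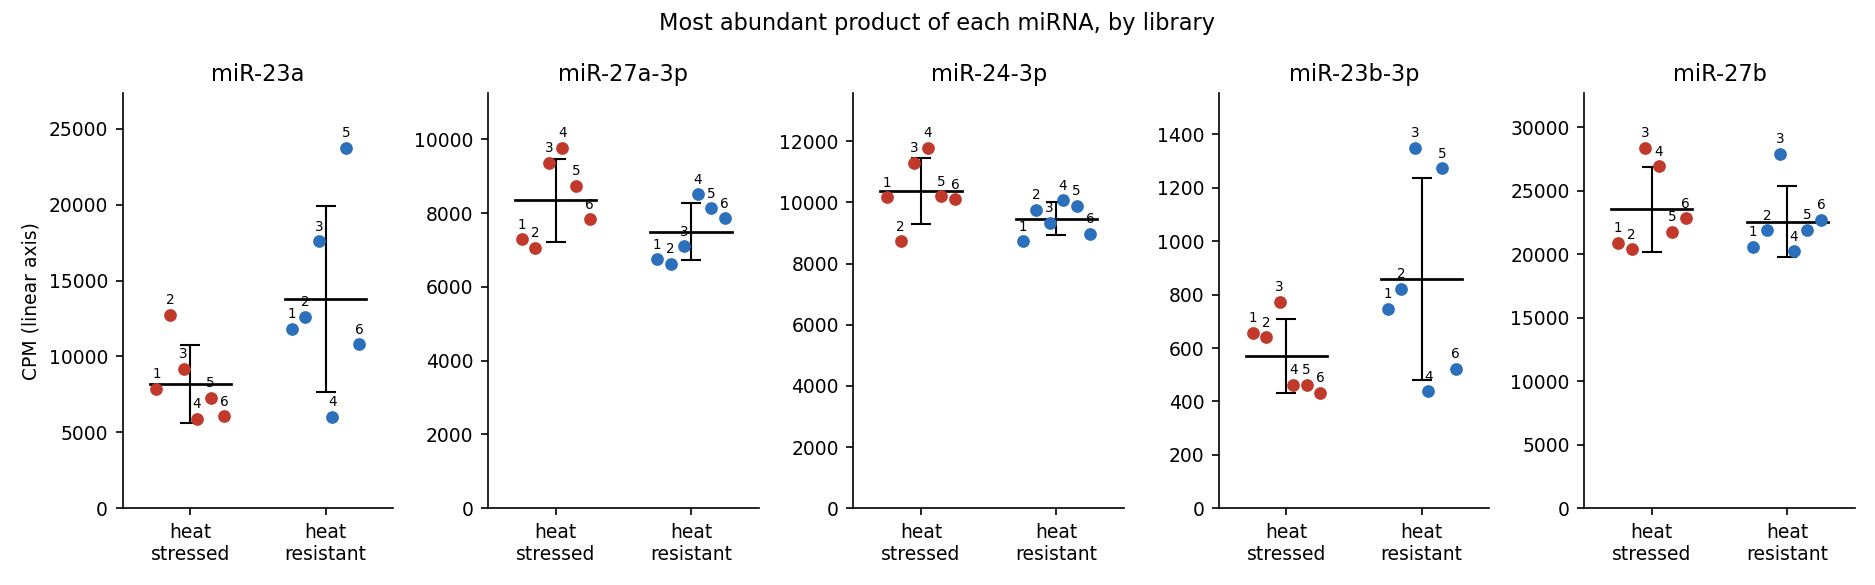
CPM (linear axis from 0) of the most abundant product of each miRNA in every library, heat stressed on the left and heat resistant on the right of each panel; numbers are library numbers, lines are means and bars SDs (n = 6 each). miR-23a and miR-23b-3p spread widely in heat resistant cows, with miR-23a from 6023 to 23772 CPM, while miR-27a-3p, miR-24-3p and miR-27b differ little between the groups.

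Single libraries decided how large the difference in miR-23a was. Without heat resistant library 4 the log2 fold change was -0.91 ± 0.23 (SE) and passed (edgeR adjusted p = 0.0235), in a fit that called 94 of 769 features (12.2%), 34 of them (4.42%) lower. That library had the lowest miR-23a of its group, so leaving it out widens the difference by construction. Without heat resistant library 5, which had the most miR-23a of all libraries, the log2 fold change was -0.51 ± 0.27 (SE; edgeR adjusted p = 0.363). Without the miR-122-rich heat resistant libraries 1 and 2 it was -0.85 ± 0.33 (SE; edgeR adjusted p = 0.299). Over all 20 alternatives the adjusted p ran from 0.0235 to 0.499.

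miR-23b-3p, the b cluster guide that shares its seed with miR-23a, also had a lower mean in heat stressed cows, and did not pass. It stood at 432, 552 and 774 CPM (lowest, median, highest) in heat stressed cows and at 438, 785 and 1351 CPM in heat resistant cows. All 6 heat stressed libraries lay below the heat resistant median, yet the ranges overlapped, as heat resistant libraries 4 and 6 had only 438 and 522 CPM. Its log2 fold change was -0.59 ± 0.27 (SE; edgeR adjusted p = 0.239). The value moved to -0.37 ± 0.26 (SE; edgeR adjusted p = 0.458) without heat resistant library 3, the library with the most miR-23b-3p. Because reads were divided between the miR-23 forms, this is not a second, separate measurement of the same direction.

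The miR-27 and miR-24 guides were close between the groups. miR-27a-3p, cut from the same a cluster transcript as miR-23a, stood at 7057, 8289 and 9774 CPM in heat stressed cows, against 6622, 7485 and 8517 CPM in heat resistant ones (lowest, median, highest). Its log2 fold change was 0.15 ± 0.12 (SE; edgeR adjusted p = 0.473). miR-24-3p lay above every heat resistant library in 5 of 6 heat stressed libraries, while heat stressed library 2 lay just below them all. Its log2 fold change was 0.13 ± 0.10 (SE; edgeR adjusted p = 0.471). That of miR-27b was 0.06 ± 0.12 (SE; edgeR adjusted p = 0.820), and its sign was not stable, as the value was -0.00292 without heat resistant libraries 1 and 2. In blood RNA of this kind, fewer cells that make a miRNA and less of it per cell cannot be told apart.

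The 5' products were far scarcer than the guides and, miR-24-2-5p apart, were measured on few reads. miR-27a-5p, the passenger of the a cluster's miR-27, had 40 to 120 counts per library. It stood at 5.47, 6.76 and 15.6 CPM (lowest, median, highest) in heat stressed and at 11.4, 13.0 and 14.8 CPM in heat resistant cows. Of the heat stressed libraries 5 lay below every heat resistant library, and heat stressed library 5 lay above them all. Its log2 fold change was -0.68 ± 0.25 (SE; edgeR adjusted p = 0.155). The value became -0.95 ± 0.19 (SE; edgeR adjusted p = 0.0867) without that library.

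miR-24-2-5p, which by its name comes from the a cluster alone, averaged 144 ± 8.92 CPM in the heat stressed and 158 ± 16.6 CPM in the heat resistant group (SD, n = 6 per group). Its log2 fold change was -0.13 ± 0.12 (SE; edgeR adjusted p = 0.579). The product named miR-24 without an arm averaged 7.48 ± 2.17 CPM in the heat stressed and 7.30 ± 2.06 CPM in the heat resistant group (SD, n = 6 per group). The a cluster's 5' product was thus the more abundant of these in 12 of 12 libraries. miR-23a-5p averaged 19.1 ± 2.48 CPM in the heat stressed and 21.6 ± 5.16 CPM in the heat resistant group (SD, n = 6 per group), with an edgeR adjusted p of 0.591. miR-23b-5p averaged 9.81 ± 2.58 CPM in the heat stressed and 13.7 ± 4.90 CPM in the heat resistant group (SD, n = 6 per group), with an edgeR adjusted p of 0.295. miR-27b-5p averaged 9.73 ± 3.62 CPM in the heat stressed and 11.7 ± 2.54 CPM in the heat resistant group (SD, n = 6 per group), with an edgeR adjusted p of 0.591. The groups overlapped in each of these passenger products.

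The 6 platypus and opossum names, forms with other ends or a substituted base, were rare, with 0 to 63 counts per library. The opossum name of miR-24-3p was at 0 in 8 libraries and 1 platypus name of miR-23b-3p in 6, and these did not pass the filter on low counts. The other 15 members did, 4 with a higher and 11 with a lower value in heat stressed cows, where 50.3% of all tested features were lower. Their median log2 fold change was -0.26, against -0.00 over all 756 features. Among members 3 had an unadjusted p under 0.05, namely miR-23a, miR-27a-5p and miR-23b-3p, all lower, against 19.3% of all features, and the smallest adjusted p was 0.155. A count of 3 in 15 is near that background. In 0 of the 15 did the groups not overlap, where 7 of 756 features (0.926%) did not.

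**Figure D2:**
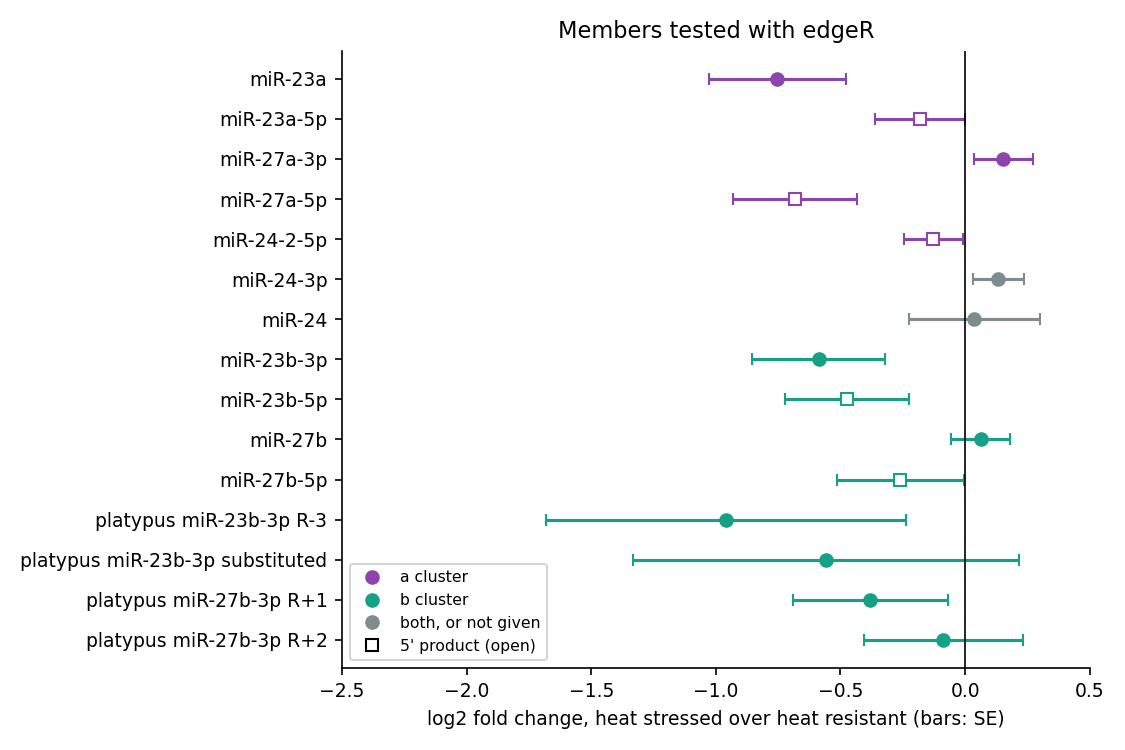
Log2 fold change of the 15 tested members, heat stressed over heat resistant (horizontal axis, edgeR), with bars for the SE; filled circles are 3' products or rows without an arm, open squares 5' products, and colours give the cluster. The miR-23 products lie left of 0, from -0.18 for miR-23a-5p to -0.96 for a rare platypus form. miR-27a-3p, miR-24-3p, miR-24 and miR-27b lie between 0.04 and 0.15. The remaining miR-27 and miR-24 products lie left of 0, from -0.09 for the platypus form R+2 of miR-27b to -0.68 for miR-27a-5p.

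The balance between the miR-27 and miR-23 guides varied widely from cow to cow in both clusters. The log2 ratio of miR-27a-3p to miR-23a was 0.07 ± 0.54 in the heat stressed group and -0.76 ± 0.72 in the heat resistant group (SD, n = 6 per group). All 6 heat stressed libraries lay above the heat resistant median of -0.87. Heat resistant libraries 1, 4 and 6, at -0.81, 0.50 and -0.46, lay within the heat stressed range of -0.85 to 0.73. In the b cluster the log2 ratio of miR-27b to miR-23b-3p was 5.39 ± 0.38 in the heat stressed group and 4.83 ± 0.57 in the heat resistant group (SD, n = 6 per group), with all 6 heat stressed libraries above the heat resistant median. The log2 ratio of miR-24-3p to miR-27a-3p was 0.32 ± 0.09 and 0.34 ± 0.13 in heat stressed and heat resistant libraries (SD, n = 6 per group), and that of miR-24-3p to miR-27b was -1.18 ± 0.10 and -1.25 ± 0.20 in the same order of groups. These SDs are smaller than those of the miR-27 to miR-23 ratios, but miR-24-3p is fed by both clusters. Among 5' products of the a cluster alone, the log2 ratio of miR-24-2-5p to miR-27a-5p was 4.21 ± 0.55 in heat stressed libraries. In heat resistant libraries it was 3.57 ± 0.22 (SD, n = 6 per group). Heat stressed library 5 was low at 3.14, while the rest of that group spanned 4.20 to 4.64. That library accounts for much of the SD of 0.55. The log2 ratio of miR-24-2-5p to miR-23a-5p was 2.91 ± 0.12 and 2.88 ± 0.33 in the same order of groups (SD). These ratios were chosen after the levels had been seen and were not tested.

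**Figure D3:**
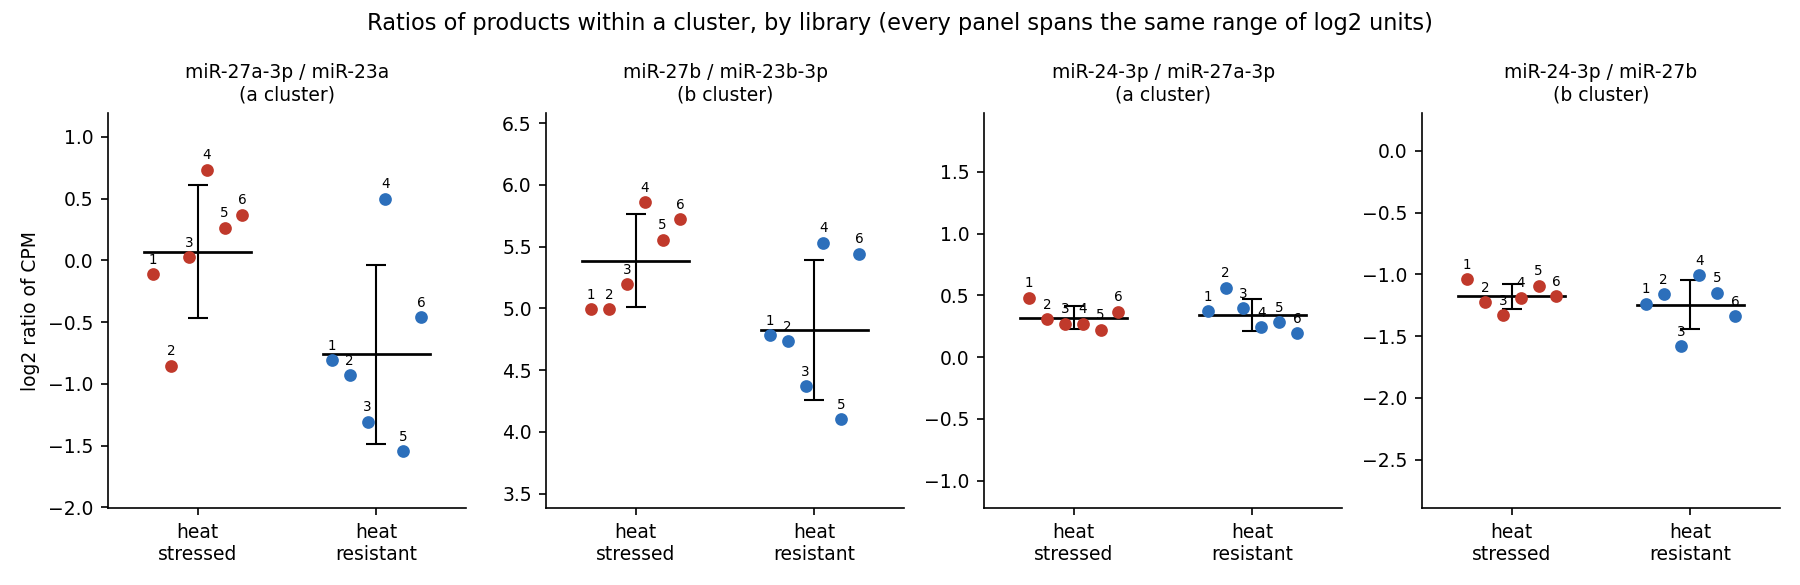
Log2 ratio of CPM between products of a cluster in every library, heat stressed left and heat resistant right; each panel spans the same range of log2 units, lines are means and bars SDs (n = 6 each). The miR-27 to miR-23 ratios spread from -1.55 to 0.73 in the a cluster, and the miR-24-3p to miR-27a-3p ratios only from 0.19 to 0.56.

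The ratio of the a to the b form did not pass the test for either miRNA. miR-23a held 14.4 ± 3.07 times the CPM of miR-23b-3p in the heat stressed group and 16.2 ± 2.94 times in the heat resistant group (SD, n = 6 per group). The log2 ratio was lower by 0.18 in heat stressed cows (difference -0.18 ± 0.15, SE; limma adjusted p = 0.412). miR-27a-3p held 0.355 ± 0.0253 of the CPM of miR-27b in the heat stressed group and 0.337 ± 0.0571 in the heat resistant group (SD, n = 6 per group), a log2 difference of 0.09 ± 0.11 (SE; limma adjusted p = 0.563). The fit covered 30 miRNA families with an a and a b form in cattle, of which 0 (0%) passed and 9 (30%) had an unadjusted p under 0.05. Divided reads enter both sides of these ratios, and how far they shift them is not known, as the number divided is not given.

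Across the 12 libraries the products of a cluster did not all move together. Of the 10 relations among the 5 main products, on log2 CPM, 2 passed. miR-23a and miR-23b-3p, from different clusters, had Pearson's r = 0.90 (permutation p = 0.00012, Benjamini-Hochberg adjusted over the 10 relations 0.0012) and Spearman's rho = 0.83 (permutation p = 0.00155, adjusted 0.0155). Without heat resistant libraries 5 and 3, the farthest from the median of miR-23a, r was 0.79 (permutation p = 0.0127). Within groups it was 0.73 in heat stressed (exact permutation p = 0.0972) and 0.93 in heat resistant cows (exact permutation p = 0.00417). These forms share a seed and some divided reads.

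miR-27a-3p and miR-24-3p had r = 0.81 (permutation p = 0.00131, adjusted 0.00655) and rho = 0.78 (permutation p = 0.00407, adjusted 0.0203). Without heat stressed libraries 4 and 3, the farthest from the median of miR-27a-3p, r was 0.55 (permutation p = 0.0954, n = 10). Leaving them out also narrows the range, so how far the relation rests on those libraries cannot be told. Within groups it was 0.89 in heat stressed (exact permutation p = 0.00833) and 0.48 in heat resistant cows (exact permutation p = 0.303). miR-23a and miR-27a-3p, from the same transcript, had r = -0.49 (permutation p = 0.106, adjusted 0.213) and rho = -0.59 (permutation p = 0.0481, adjusted 0.120). Without heat resistant libraries 5 and 3 r was -0.70 (permutation p = 0.0321), and within groups it was -0.50 in heat stressed (exact permutation p = 0.321) and -0.25 in heat resistant cows (exact permutation p = 0.651). miR-23a and miR-24-3p, which is fed by both clusters, had r = -0.52 (permutation p = 0.0848, adjusted 0.212) and rho = -0.69 (permutation p = 0.0169, adjusted 0.0562). Without the same libraries r was -0.68 (permutation p = 0.0317). Within groups it was -0.66 in heat stressed (exact permutation p = 0.161) and -0.07 in heat resistant cows (exact permutation p = 0.876). miR-23b-3p and miR-27b had r = 0.27 (permutation p = 0.400, adjusted 0.474) and rho = 0.28 (permutation p = 0.380, adjusted 0.422). Without heat resistant libraries 3 and 5 r was 0.03 (permutation p = 0.930), and within groups it was 0.12 in heat stressed (exact permutation p = 0.762) and 0.62 in heat resistant cows (exact permutation p = 0.174).

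Red cell miRNAs ran opposite to miR-23a across the libraries. The list of miR-451, miR-144 and miR-486 held 49239 ± 17636 CPM in heat stressed cows, against 33153 ± 28001 CPM in heat resistant ones (SD, n = 6 per group), and 8 of its 8 tested features had higher values in heat stressed cows, with 0 called, as over all 756 features. Without heat resistant library 4 the heat resistant mean was 21769 ± 2862 CPM (SD, n = 5). Spearman's rho with miR-451 over the 12 libraries was -0.59 for miR-23a and -0.43 for miR-23b-3p, against 0.52 for miR-27a-3p, 0.59 for miR-24-3p and -0.17 for miR-27b, as descriptions. Without heat resistant library 4 rho was -0.48 for miR-23a, -0.31 for miR-23b-3p, 0.48 for miR-27a-3p, 0.63 for miR-24-3p and 0.08 for miR-27b, over 11 libraries. All these levels are shares of 1 library total. With log2 CPM of miR-451 as a covariate, the log2 fold change of miR-23a was -0.50 ± 0.29 (SE; edgeR adjusted p = 0.499) and that of miR-23b-3p -0.41 ± 0.30 (SE; edgeR adjusted p = 0.598). This fit cannot separate red cell RNA from group, as both miRNAs are shares of 1 total and miR-451 had a higher mean in heat stressed cows. The part of red cell RNA in the miR-23a difference was not tested.

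**Figure D4:**
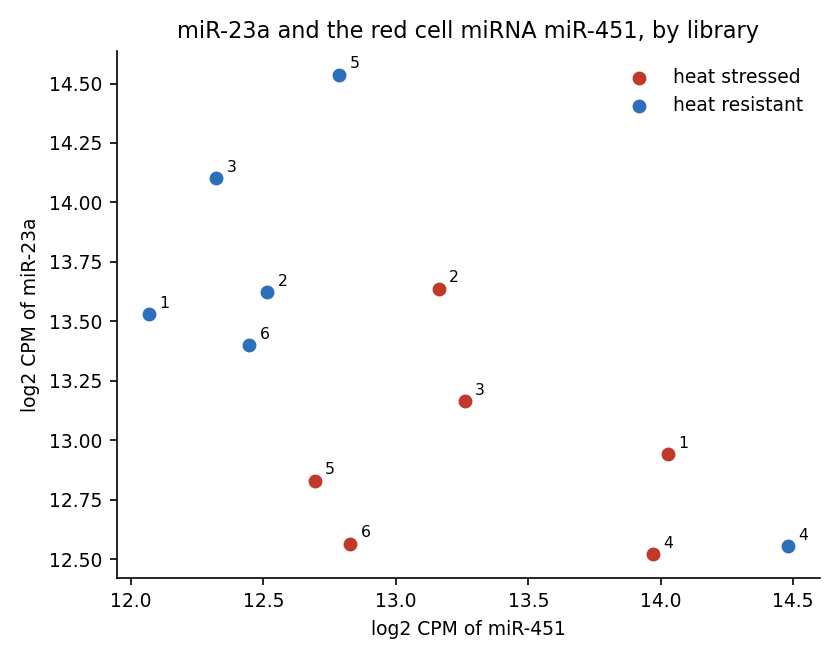
Log2 CPM of miR-23a (vertical axis) against log2 CPM of miR-451 (horizontal axis) in the 12 libraries, heat stressed in red and heat resistant in blue, with library numbers. Heat resistant library 4 had the most miR-451, 22851 CPM, and a miR-23a level of 6023 CPM near the bottom of all libraries.

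Of the markers of other cells, 0 were called, as over all 756 features. The lymphocyte miRNAs miR-150 and miR-342 summed to 4976 to 11266 CPM in heat stressed cows, against 3638 to 5252 CPM in heat resistant ones, and 6 of 6 tested features had higher values. The blood cell miRNAs miR-223 and miR-142 summed to 27129 to 44673 CPM in heat stressed cows, against 17069 to 35993 CPM in heat resistant ones, with 5 of 6 features higher. Of these, miR-142-5p averaged 29562 and 16534 CPM in that order of groups (log2 fold change 0.84 ± 0.21, SE). miR-223 averaged 8014 and 7161 CPM (0.16 ± 0.17), and miR-223-5p was lower in heat stressed cows (-0.32 ± 0.19). All 6 of the lymphocyte list, which are forms of only 2 miRNAs, and 2 of the miR-223 and miR-142 list had an unadjusted p under 0.05. Over all features the share was 19.3%. miR-126, of platelets and endothelium, summed to 2394 to 8130 CPM in heat stressed cows, against 3836 to 6466 CPM in heat resistant ones, with medians of 5106 and 5640 CPM and log2 fold changes of 0.03 and 0.02 for its 2 features. The hepatocyte miRNAs miR-122 and miR-885 summed to 8620 to 41982 CPM in heat stressed cows, against 16629 to 145987 CPM in heat resistant ones, with 2 of 5 features higher and the top of the heat resistant range set by libraries 1 and 2. The skeletal muscle miRNAs miR-206, miR-1 and miR-133a summed to 105 to 706 CPM in heat stressed and 78.3 to 649.7 CPM in heat resistant cows, with 3 of 3 features higher. For miR-143 and miR-145, of vascular smooth muscle, the sums were 7683 to 10119 CPM in heat stressed cows, against 6596 to 11087 CPM in heat resistant ones, with 1 of 3 features higher. The main feature of each of these markers was above 0 in 12 of 12 libraries. The part of these cells in the members' levels was not tested.

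The arm ratio of the miR-27a precursor was the member measure that passed its test. For each 1000 CPM of miR-27a-3p, heat stressed libraries held 0.781, 0.814 and 1.82 CPM of miR-27a-5p (lowest, median, highest), and heat resistant libraries 1.36, 1.75 and 2.24 CPM. In 5 of 6 heat stressed libraries the ratio lay below every heat resistant library, and heat stressed library 5 lay among them. The log2 ratio fell by 0.91 in heat stressed cows (difference -0.91 ± 0.21, SE; limma adjusted p = 0.0360), and the exact permutation p of this ratio alone was 0.00866. The fit covered 153 precursors, of which 4 (2.61%) passed and 29 (19%) had an unadjusted p under 0.05. Arms were mostly read from names, so some of these ratios leave out the main product. That of miR-342 used a rare 3' form at 3.21 CPM, while the row named miR-342 held 5540 CPM (heat stressed means). The adjusted p and the background shares rest on this whole set, such ratios included. The miR-27a-5p numerator rests on 40 to 120 counts per library. The call was lost in 9 of the 12 fits that left out a library, whose adjusted p ran from 0.000968 without heat stressed library 5 to 0.103 without heat resistant library 2. Without heat resistant libraries 1 and 2 together the difference was -0.76 ± 0.24 (SE; limma adjusted p = 0.260). The calls that remained were those without heat stressed library 2, heat stressed library 5 or heat resistant library 4.

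The other precursors of the clusters did not pass. The a cluster's miR-24-2-5p held 12.7, 13.9 and 16.3 CPM per 1000 CPM of miR-24-3p in heat stressed and 14.9, 16.9 and 19.0 CPM in heat resistant libraries (lowest, median, highest). All 6 heat stressed libraries lay below the heat resistant median, and 5 of 6 below the lowest heat resistant library. The log2 difference was -0.25 ± 0.10 (SE; limma adjusted p = 0.225; exact permutation p of the single ratio = 0.0108). The denominator of this ratio is fed by both clusters. Log2 differences of the 5' to 3' ratio were 0.53 ± 0.35 for miR-23a (limma adjusted p = 0.394), 0.07 ± 0.27 for miR-23b (0.887) and -0.38 ± 0.26 for miR-27b (0.397), with SE. The miR-23b value was -0.15 without heat resistant library 5. The groups overlapped in all 3.

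**Figure D5:**
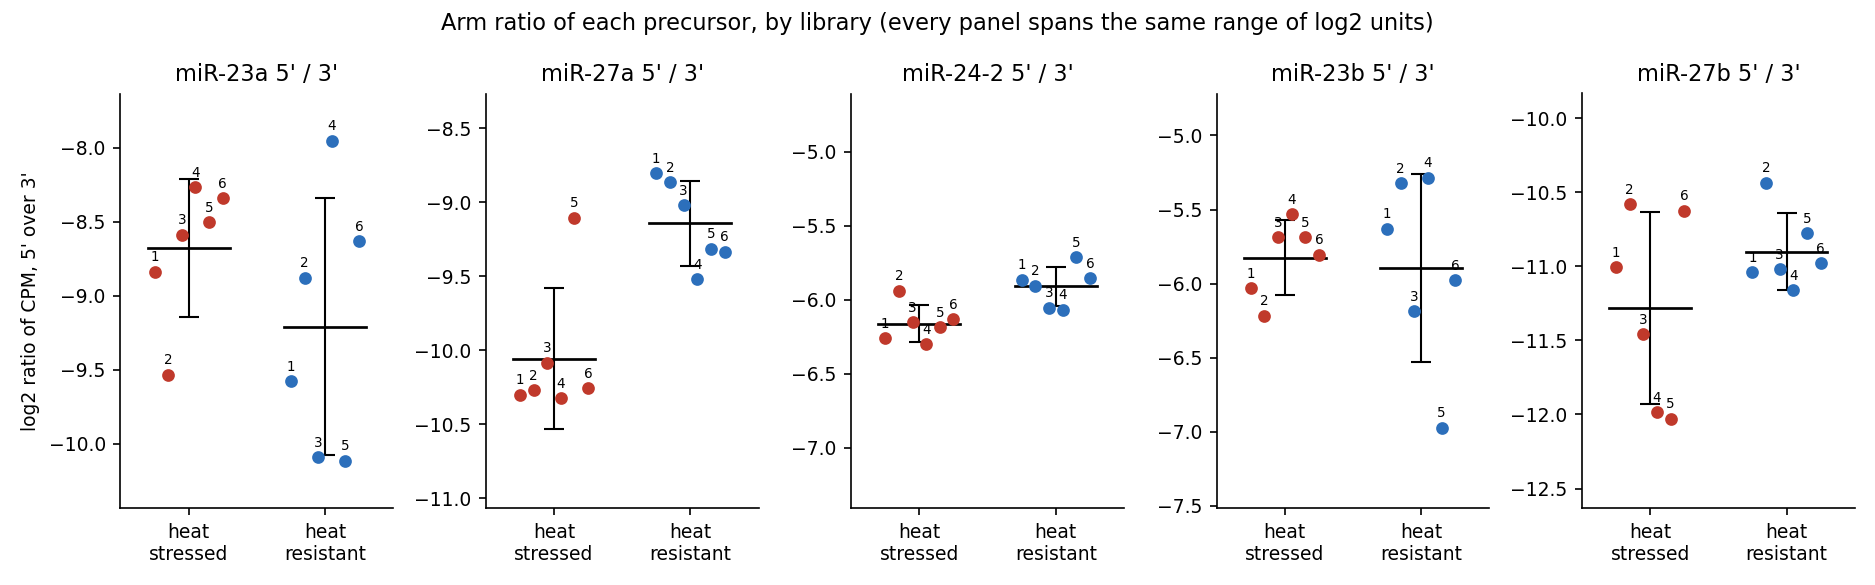
Log2 ratio of the 5' to the 3' product of each precursor in every library, heat stressed left and heat resistant right; each panel spans the same range of log2 units, lines are means and bars SDs (n = 6 each). For miR-27a the heat stressed libraries lie between -10.3 and -10.1 apart from library 5 at -9.10, and the heat resistant libraries between -9.52 and -8.80.

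The features whose pattern over the 12 libraries was most like that of a member were found by Spearman's rho of log2 CPM among 437 cattle-named features outside the clusters, as a description of these libraries that share depth and composition. For miR-23a they were miR-652 (rho = 0.94), let-7f (0.92) and miR-103 (0.92), and for miR-23b-3p let-7f (0.78), miR-103 (0.78) and let-7d (0.76). miR-652 stood at 928 ± 277 CPM in heat stressed cows, against 1434 ± 519 CPM in heat resistant ones (SD, n = 6 per group; edgeR adjusted p = 0.186). For miR-27a-3p they were a product of the miR-7865 precursor (0.85), miR-2308 (0.82) and miR-484 (0.81), and for miR-24-3p miR-99a-3p (0.88), miR-7860 (0.87) and miR-450a (0.83). miR-27b had the weakest likeness to any feature, with 0.71 for miR-28, 0.62 for miR-497 and 0.60 for miR-2284f. The miR-23 forms, with a rho of 0.83 to each other, shared let-7f and miR-103. No feature was among the 3 nearest of both miR-23a and miR-27a-3p, which follows from their rho of -0.59 to each other.

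Relatives and vascular companions of the clusters were split between higher and lower values. Of 5 relatives by seed or name, only miR-128 passed the filter on low counts. This miRNA, best known from the brain, has a seed that overlaps that of miR-27. It stood at 2154 ± 352 CPM in the heat stressed and 2133 ± 232 CPM in the heat resistant group (SD, n = 6 per group), a log2 fold change of 0.01 ± 0.13 (SE; edgeR adjusted p = 0.972). Of 24 tested features of 14 miRNAs active in vessels, 11 had higher and 13 lower values, and 0 were called, as over all 756 features. The median log2 fold change was -0.02, against -0.00 over all features. miR-99a-5p and miR-100 held the same values, so these count double among the 13 lower, and their log2 fold change is that median. Log2 fold changes were -0.16 ± 0.15 for miR-221 and -0.07 ± 0.17 for miR-222, which curb endothelial growth, and 0.02 ± 0.24 for miR-126-3p, which keeps endothelium intact (SE). An unadjusted p under 0.05 was found for 3 of the 24, against 19.3% of all features. These 3 were named after their values were seen: log2 fold changes were -0.38 ± 0.14 for miR-132 (edgeR adjusted p = 0.162), -0.98 ± 0.36 for miR-125b-1-3p (0.155) and 0.58 ± 0.24 for miR-99a-3p (0.189), with SE. MIR2475, the miRNA gene annotated next to MIR23B, had at most 13 counts in any library and was not tested.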

How the data were processed

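Per the labels' protocols, blood RNA was extracted with Trizol, made into TruSeq small RNA libraries, sequenced on an Illumina HiSeq instrument and filtered with ACGT101-miR; the aligner and build: not given in the sources used here. Its text speaks of 9 libraries; all 12 were used. The deposited table holds expected counts per miRNA row, per the file headers; they were rounded for the count tests. A second set of deposited columns, a normalized signal, entered no test. Repeat rows with the same name and values (202) were counted once, and library totals include all rows. Beyond 12 cows, the labels do not say what separates the libraries, so p-values measure only the spread between them.

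Features were tested in R 4.3.3 with edgeR 4.0.16 (filterByExpr, minimum count 10, TMM, robust quasi-likelihood F test), adjusted by Benjamini-Hochberg over 756 features at 0.05, 2-sided. SE is the log2 fold change over the root of F. Ratios of log2 CPM (prior count 2) were tested with limma 3.58.1 over 153 precursors and 30 paralog pairs. Precursors and arms were matched by name, so some of the 153 ratios rest on rare forms. miR-23a and miR-27b, named without an arm, were taken as 3' products, the arm of their human namesakes, after the table had been seen. DESeq2 1.42.0 was an alternative. Replicates of a group differed well beyond counting noise. The tests were checked on simulated data. Named miRNAs are all members, the 3 features most like each main product, and listed cell markers and relatives. Members and lists were chosen with earlier results of these data known.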

Additional observations from a re-analysis of the deposited data

Results flagged for a closer look

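In 56 sets of 6 libraries, 6 values lay far from the rest of their group by Dixon's criterion, which chance gives in about 1 of 20 sets. Heat stressed library 5 had 15.6 CPM of miR-27a-5p, against 5.47 to 8.39 CPM in the others of its group. Its log2 5' to 3' ratio of miR-27a was -9.10, against -10.3 to -10.1, and its log2 ratio of miR-24-2-5p to miR-27a-5p was 3.14, against 4.20 to 4.64. These 3 values share the same 120 counts of miR-27a-5p. Heat stressed library 3 had 14.8 CPM of miR-23b-5p, against 7.47 to 9.78 CPM, and 5.75 CPM of a rare platypus form of miR-23b-3p, against 0 to 1.29 CPM. Heat resistant library 3 had 27919 CPM of miR-27b, against 20246 to 22728 CPM in the others of its group.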

How the results depend on the processing

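Over all features edgeR called 0, against 11 without a filter on low counts, 13 with repeat rows summed, 8 with the replicate number as a block and 54 with DESeq2. Leaving out 1 library gave 0 to 94 calls (94 without heat resistant library 4, 37 without heat stressed library 2, 2 without heat resistant library 5). The arm ratio of miR-27a was -0.91 with the replicate block (limma adjusted p = 0.0513), -0.76 without heat resistant libraries 1 and 2, an alternative chosen after seeing the data, and -1.10 to -0.84 without 1 library. That of miR-23b ran from -0.15 to 0.19 without 1 library, and was below 0 without heat resistant library 5. The arm ratio of miR-24-2, -0.25, was under 0.05 only without adjustment, by limma (p = 0.0302) and by the exact permutation test (p = 0.0108). Some log2 fold changes changed sign: without 1 library miR-24 ran from -0.10 to 0.20, miR-27b from -6.05e-06 to 0.19 and the platypus form R+2 of miR-27b from -0.24 to 0.19. The last was 0.083 with miR-451 as covariate and 0.0107 with limma-voom, which also gave 0.22 for the substituted platypus form of miR-23b, against -0.56 with edgeR. miR-27b was -0.00292 without heat resistant libraries 1 and 2. Deviations of 2 of 6 same-numbered pairs correlated over 0.1, and 3 of 6 libraries matched their own number best. These values do not settle whether the replicate numbers pair the samples. The block changed no other call of a member. Products under about 20 CPM rest on few reads, which limits what can be seen of them.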
